A study of Mus musculus with 9 samples.

Results

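The genes described here encode 9 parts of the pathway of phosphoinositide 3-kinase (PI3K) and the protein kinases Akt and Sgk, measured in mouse regulatory T cells (Tregs). They were taken by symbol (Pik3cd, Pik3r1, Pik3ip1, Inpp5d, Phlpp1, Akt1, Akt2, Sgk1 and Sgk3), and all 9 were found among the 23420 genes of the expression table. RNA was sequenced from 9 libraries in 3 groups of 3: synovial Tregs of mice with collagen-induced arthritis, Tregs of the draining lymph node of such mice, and Tregs of the draining node of control mice that had no treatment. In this model, immunization with collagen leads to inflamed joints. All mice were labelled WT, and in every group the cells were sorted from digested paws or nodes by the YFP signal of a Foxp3 reporter. In arthritic mice, the joint and node samples are numbered by mouse. The labels do not name the reporter allele, and the sources used here give no strain, age or pooling of animals. The titles are read here as 1 mouse per library, and p-values measure the spread between these libraries.

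PI3K is a lipid kinase at the cell membrane that makes phosphatidylinositol trisphosphate after stimulation through the T cell receptor, CD28, ICOS or cytokine receptors. The lipid brings Akt and the kinase PDK1 together, and both Akt and the related Sgk kinases are switched on by PDK1 and by the mTORC2 complex. Active Akt and Sgk keep FoxO transcription factors out of the nucleus. Tregs are known to hold this pathway low, with the Akt phosphatase PHLPP1 among the brakes.

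Each library held 11300406 to 12855435 reads assigned to genes. Values below are normalized read counts, and changes are log2 differences of mean log2(normalized count + 1) between groups, ± standard error, from limma. Its p-values were adjusted by the Benjamini-Hochberg method over 11357 genes, and a gene was called higher or lower at an adjusted p under 0.05. In a principal component analysis the first axis (53.1% of the variance) set synovial apart from node libraries. Scores on it were 94.0 to 117.1 in synovium, -39.9 to -34.8 in arthritic nodes and -73.4 to -56.2 in control nodes, so the node groups did not overlap either. Control node library 1 scored 83.5 on the next axis (10.9%), while the remaining libraries scored from -41.4 to 18.8. The Treg markers Foxp3, Il2ra, Ctla4, Ikzf2, Cd4 and Cd3e had reads in every group, with summed values of 97526 to 102147 in synovium, 39877 to 46077 in arthritic nodes and 44039 to 48824 in control nodes. Of these, Il2ra, Ctla4 and Ikzf2 were called higher in synovium than in arthritic nodes. Foxp3, Cd4 and Cd3e did not pass (adjusted p = 0.0597, 0.107 and 0.955 by limma).

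The joint was compared with the draining node of arthritic mice to ask how this pathway is set in Tregs at the site of disease. There were no synovial libraries of control mice, so inflammation of the joint, joint tissue in general and digestion of paws cannot be told apart. Synovial Tregs had more Sgk1 (5.25-fold) and Phlpp1 (5.13-fold), and less Sgk3 (24.1-fold), Pik3ip1 (10.1-fold) and Pik3cd (2.88-fold). Inpp5d was called higher by a narrow margin. The kinase genes Akt1 and Akt2 and the regulatory subunit gene Pik3r1 did not pass the test. In all, 6 members were called (33.8% of all genes tested were), 3 of them higher (17.9% of all genes) and 3 lower (15.9% of all genes). The libraries of both groups did not overlap for 6 members, against 48.2% of all genes. The median difference over the 9 members was 0.26, and over all genes it was -7.25e-05. RNA of sorted cells was measured in bulk, so fewer cells with a transcript and less of it per cell cannot be told apart.

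**Figure D1:**
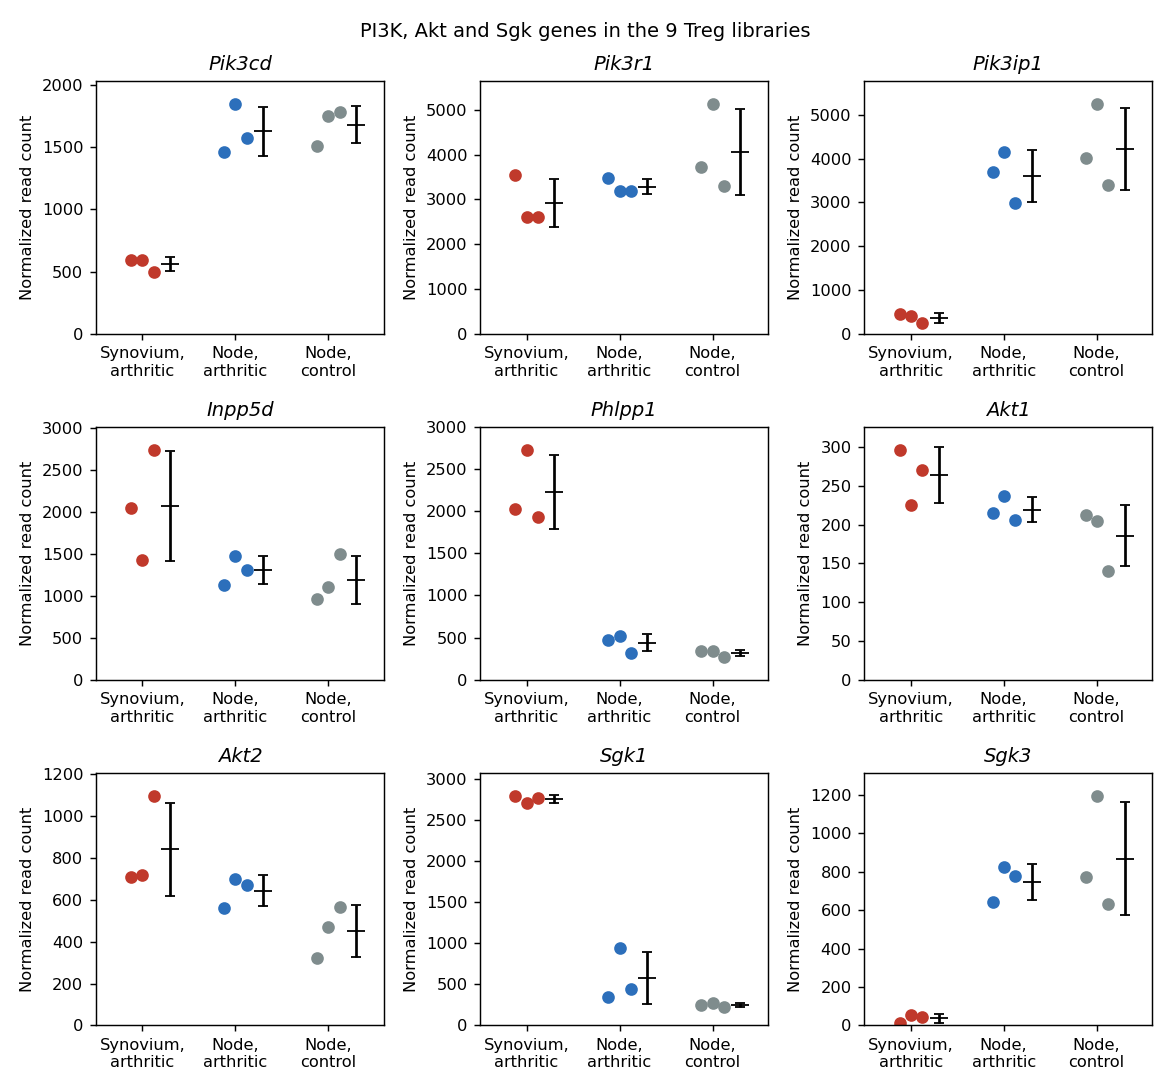
Normalized read count (vertical axis, from 0) of each of the 9 genes in the 3 synovial libraries, the 3 arthritic node libraries and the 3 control node libraries. Points are libraries, and the bar beside them is the mean with 1 SD. Sgk1 and Phlpp1 lie far higher, and Sgk3, Pik3ip1 and Pik3cd far lower, in all 3 synovial libraries than in any node library.

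The Sgk kinases moved in opposite directions. Sgk1 encodes a kinase close to Akt in its catalytic domain, whose transcript is known to respond quickly to hormones, salt and stress. Its normalized counts were 2799, 2710.0 and 2768 in the synovial libraries, 345, 944 and 444 in arthritic nodes, with 247, 274 and 224 in control nodes. The synovial libraries were close to one another and all above every node library, and arthritic node library 2 was the highest of the node libraries. The mean of 2759 ± 45.0 (SD, n = 3) in synovium stood against 578 ± 321 (SD, n = 3) in arthritic nodes. The rise was 2.39 ± 0.29 (5.25-fold, adjusted p = 4.88e-05 by limma).

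Sgk3 encodes the member of the family that has a lipid-binding PX domain and sits on endosomes. Its normalized counts were 11.0, 54.0 and 43.8 in synovium, from 10, 46 and 39 reads. The arthritic node libraries had 644, 823 and 779, and the control node libraries 774, 1197 and 634. All synovial libraries were far below all node libraries. Sgk3 fell by 4.59 (SE 0.47, 24.1-fold, adjusted p = 1.5e-05 by limma), which placed its difference below those of all but 0.299% of the genes tested.

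The ratio of Sgk1 to Sgk3, each per kilobase of exon, was 741, 146 and 184 in the synovial libraries. In arthritic nodes it was 1.56, 3.35 and 1.66, and in control nodes 0.931, 0.667 and 1.03. Both genes therefore stood at similar levels in control nodes, while almost all reads of the pair came from Sgk1 in synovium. Exon lengths are the union over all annotated transcripts (4903 bases for Sgk1 and 14311 for Sgk3), so a level per kilobase is lowered where only a short transcript is used. The authors' deposited table, made from the libraries of arthritic mice, lists Sgk1 at 2.23 and Sgk3 at -4.39 on the log2 scale.

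**Figure D2:**
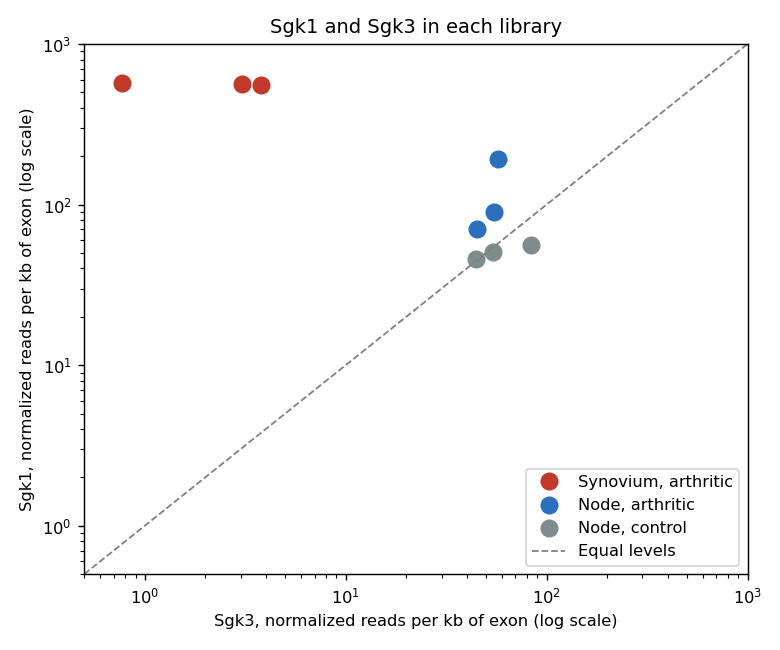
Sgk1 (vertical axis) against Sgk3 (horizontal axis), both as normalized reads per kilobase of exon on log scales, with 1 point per library and a dashed line of equal levels. The 3 synovial points lie far above the line at Sgk3 levels of 0.77 to 3.77, while the node points lie within a factor of 3.35 of it.

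Sgk1 lies on chromosome 10 from 21882184 to 21999903 (plus strand) and Sgk3 on chromosome 1 from 9798107 to 9900845 (plus strand, both GRCm38). RefSeq (GRCm38.p6) has start sites for 8 of the 9 genes in 20 windows, 6 of them for Sgk1. The 250 bases before each start were searched on both strands for FoxO (TGTTTAC), AP-1 (TGANTCA), CRE (TGACGTCA) and heat shock (GAANNTTC) letters, and for the glucocorticoid response element (TGTTCT and its reverse complement AGAACA before it, with 3 bases between), which was added after the sequences had been seen. The counts are per gene and do not show which start was used. Not all of these bases lie outside annotated exons. By GENCODE annotation, exons cover all 250 bases of the Pik3ip1 window, 117 of the Phlpp1 window, 93 of 1 Akt2 window and 4 of 1 Pik3cd window. A pair of Sgk1 windows is shown because Sgk1 had the highest level in synovium per kilobase, with the glucocorticoid element in capitals (the heat shock letters lie inside it), and 1 window of Pik3cd is shown as a gene that fell.
Sgk1, chr10:21993640-21993889, plus strand: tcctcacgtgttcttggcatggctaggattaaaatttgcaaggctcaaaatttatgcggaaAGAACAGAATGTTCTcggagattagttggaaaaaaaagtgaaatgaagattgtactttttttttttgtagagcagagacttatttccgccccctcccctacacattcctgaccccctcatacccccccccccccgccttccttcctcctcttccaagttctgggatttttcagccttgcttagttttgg
Sgk1, chr10:21994416-21994665, plus strand: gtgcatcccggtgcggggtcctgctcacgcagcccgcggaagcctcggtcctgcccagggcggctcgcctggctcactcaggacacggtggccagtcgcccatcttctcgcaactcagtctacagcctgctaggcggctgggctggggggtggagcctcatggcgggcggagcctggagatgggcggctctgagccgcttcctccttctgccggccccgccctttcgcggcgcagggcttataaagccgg
Pik3cd, chr4:149698709-149698958, minus strand: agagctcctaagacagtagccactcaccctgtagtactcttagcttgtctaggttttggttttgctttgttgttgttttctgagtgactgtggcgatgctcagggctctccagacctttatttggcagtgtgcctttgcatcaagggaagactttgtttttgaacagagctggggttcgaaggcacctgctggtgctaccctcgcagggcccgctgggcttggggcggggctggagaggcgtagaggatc
In the first of these windows the element AGAACAGAATGTTCT stands from 189 to 175 bases before the start (chromosome 10, 21993701 to 21993715). Its letters occur in 3 of the 32851 windows of all genes, or 0.00913%, with this window included. Because the element was added after the sequences had been seen, that share cannot show whether the match is unusual. The element fixes more letters than the other patterns, so its share is not comparable with theirs. Heat shock letters occur in 6.69% of all windows and in 1 further Sgk1 window. FoxO letters occur in 3.17% of all windows and, among the members, in 1 window of Akt1, 161 to 155 bases before the start. AP-1 letters (6.75% of windows) and CRE letters (1.55%) were in none of the 20 windows. A match describes the sequence only.

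Among the PI3K subunits, the catalytic one fell and the regulatory one did not pass. Pik3cd (chromosome 4, 149649168 to 149702571, minus strand) encodes p110 delta, the main catalytic subunit of lymphocytes. Its normalized counts were 596, 595 and 499 in synovium, 1462, 1848 and 1572 in arthritic nodes, with 1513, 1749 and 1785 in control nodes. The synovial libraries stood at about the same level and below all 6 node libraries. Pik3cd fell by 1.53 (SE 0.14, 2.88-fold, adjusted p = 6.18e-06 by limma).

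Pik3r1 (chromosome 13, 101680563 to 101768217, minus strand) encodes p85 alpha, which binds and stabilizes the catalytic subunit. It had 3540.3, 2606 and 2609 in synovium, 3484, 3183 and 3191 in arthritic nodes, with 3727, 5130.4 and 3302 in control nodes. Synovial library 1 lay above the arthritic node libraries and the other two lay below them. The difference of -0.19 ± 0.16 had a 95% interval from -0.54 to 0.17 (adjusted p = 0.423 by limma). Quantile normalization, which moved the median of all genes to -0.12 and the share of calls that were higher from 52.9% to 42.2%, gave -0.45 (adjusted p = 0.0448).

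Pik3ip1 (chromosome 11, 3330401 to 3342971, plus strand) encodes a membrane protein that binds and inhibits the PI3K catalytic subunit. Its normalized counts were 442, 406 and 243 in synovium, 3693, 4147 and 2979 in arthritic nodes, with 4023, 5248 and 3389.9 in control nodes. No synovial library came near the node libraries. The fall was the second in size among the members: Pik3ip1 fell by 3.34 (SE 0.23, 10.1-fold, adjusted p = 4.26e-07 by limma). Exons of Gm12592 on the other strand overlap 2.13% of its exon length, and whether reads were counted by strand is not known here.

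Both phosphatase genes were called higher, 1 of them only narrowly. Phlpp1 (chromosome 1, 106171752 to 106394250, plus strand) encodes a phosphatase that removes the activating phosphate of Akt. It had 2024, 2731 and 1933 in synovium, 477, 513 and 321 in arthritic nodes, with 340.2, 337 and 273 in control nodes. Every synovial library was above every node library. Phlpp1 rose by 2.36 ± 0.21 (5.13-fold, adjusted p = 4.25e-06 by limma).

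Inpp5d (chromosome 1, 87620312 to 87720507, plus strand) encodes SHIP-1, which removes a phosphate from the lipid made by PI3K. It had 2052, 1428 and 2743 in synovium, 1134, 1472 and 1309 in arthritic nodes, with 964, 1099.6 and 1504 in control nodes. Synovial library 2 lay within the range of the arthritic nodes, so the groups overlapped. The rise of 0.63 ± 0.23 had an adjusted p = 0.0494 by limma and an adjusted p = 0.0197 in the authors' deposited table. The call held in 9 of 22 alternatives. It needed synovial library 1 (adjusted p = 0.1165 without it) and was lost without synovial library 3 (0.195, at a difference of 0.40), without arthritic node library 1 (0.159), 2 (0.0641) or 3 (0.104), without control node library 2 (0.0615), and under TMM (0.0631) and quantile scaling (0.19) and by edgeR (0.0558).

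Neither Akt gene passed the test between joint and arthritic node. Akt1 (chromosome 12, 112653821 to 112674884, minus strand) had 296, 225 and 271 in synovium, 215, 237 and 206 in arthritic nodes, with 213, 204 and 141 in control nodes. Its difference from arthritic nodes was 0.26 ± 0.26, with a 95% interval from -0.30 to 0.82 (adjusted p = 0.47 by limma). Akt2 (chromosome 7, 27591552 to 27640826, plus strand) had 709, 719.8 and 1098 in synovium, 561, 700.4 and 670.0 in arthritic nodes, with 320.2, 472 and 566 in control nodes. Its synovial libraries were above all node libraries, 2 of them by little, and the difference from arthritic nodes was 0.36 ± 0.24 (95% interval -0.15 to 0.88, adjusted p = 0.266 by limma). These intervals leave out changes as large as those of Sgk1 or Phlpp1. Per kilobase of exon, Akt1 stood at 0.429 to 0.728 of Akt2 in synovium, 0.535 to 0.666 in arthritic nodes and 0.432 to 1.16 in control nodes, so the ranges overlapped.

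**Figure D3:**
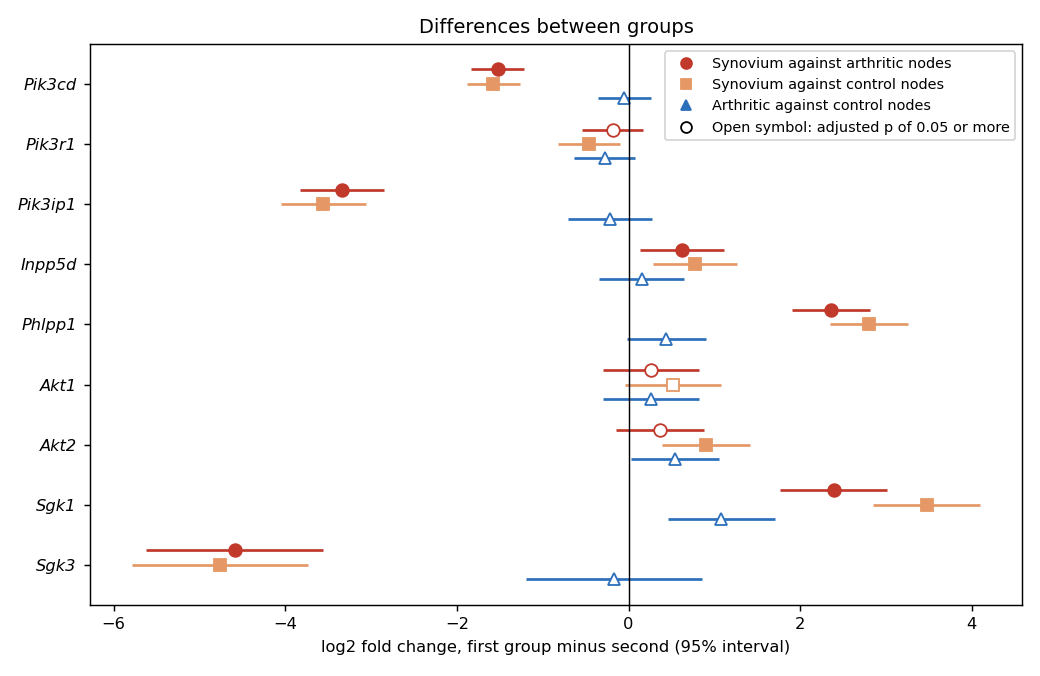
Log2 fold change (horizontal axis) of each gene in the 3 comparisons, first group minus second, with 95% intervals from limma as lines. Filled symbols passed an adjusted p of 0.05 and open ones did not: all 9 differences between arthritic and control nodes are open, while Sgk3 and Pik3ip1 lie farthest to the left and Sgk1 and Phlpp1 farthest to the right in both comparisons of synovium. Those comparisons share the synovial libraries.

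The order of the members by level was rearranged in the joint. In arthritic nodes Pik3ip1 was the highest per kilobase of exon, at 844 ± 138 normalized reads (SD, n = 3), followed by Pik3r1 at 326 ± 17.0 and Pik3cd at 260.0 ± 31.8, and the ranges of these neighbours did not overlap. Inpp5d (172 ± 22.2), Sgk1 (118 ± 65.5) and Akt2 (90.3 ± 10.3) followed with ranges that overlapped from one to the next. Phlpp1 (64.7 ± 15.1), Akt1 (53.5 ± 3.84) and Sgk3 (52.3 ± 6.49) were lowest and overlapped as well. The same 4 genes led in control nodes, where Pik3ip1 reached 988 ± 221.

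In synovium Sgk1 was the highest member per kilobase, at 563 ± 9.18, above the range of Phlpp1 (330.2 ± 64.7). Phlpp1, Pik3r1 (289.6 ± 53.4) and Inpp5d (273 ± 86.5) overlapped from one to the next. Akt2 came next at 118 ± 31.1, and Pik3cd (90.0 ± 8.93), Pik3ip1 (85.1 ± 24.9) and Akt1 (64.5 ± 8.77) overlapped below it. Sgk3 was last at 2.54 ± 1.57.

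Arthritic nodes were compared with control nodes to ask whether the pathway differed with disease in the draining node. It shares the arthritic node libraries with the first comparison. No member passed limma's test, 2 of 9 had an unadjusted p under 0.05 (Sgk1 and Akt2; 9.08% of all genes did), edgeR called 0 and DESeq2 called 1. Of all genes, 0.343% were called. Sgk1 averaged 578 ± 321 in arthritic and 248 ± 24.9 in control nodes (SD, n = 3), with no overlap of the libraries, as for 14.9% of all genes. Its difference was 1.08 ± 0.29 (95% interval 0.46 to 1.71, adjusted p = 0.195 by limma). DESeq2 on the recovered reads gave 1.22 (adjusted p = 0.00632). Without arthritic node library 2, which had the highest count, limma gave 0.66 (adjusted p = 0.505).

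Akt2 differed by 0.54 ± 0.24 (adjusted p = 0.528 by limma) and Phlpp1 by 0.44 ± 0.21 (adjusted p = 0.567). The difference of Pik3cd was -0.05 ± 0.14 and its 95% interval ran from -0.36 to 0.26. For Pik3ip1 it was -0.22 ± 0.23 (-0.71 to 0.28). For Sgk3 it was -0.17 ± 0.47 (-1.20 to 0.86), the widest interval of the members. The median over the members was 0.15, against 0.01 over all genes.

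Synovial Tregs were also set against control node Tregs, a comparison that differs in tissue and disease and shares libraries with both others. Of the 9 members, 4 were called higher (21.6% of all genes were) and 4 lower (18.5%). Sgk1 rose by 3.47 ± 0.29 (11.1-fold, adjusted p = 1.67e-06 by limma) and Phlpp1 by 2.80 ± 0.21 (6.97-fold). Sgk3 fell by 4.76 (SE 0.47), Pik3ip1 fell by 3.56 (SE 0.23) and Pik3cd fell by 1.58 (SE 0.14).

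Akt2 rose by 0.90 ± 0.24 against control nodes (adjusted p = 0.00929 by limma), with all synovial libraries above all control libraries. Akt1 differed by 0.52 ± 0.26 (adjusted p = 0.128). Inpp5d rose by 0.78 ± 0.23 (adjusted p = 0.0161). The Inpp5d call was lost when synovial library 3 (adjusted p = 0.0719), control node library 1 (0.0666) or control node library 2 (0.0504) was left out. Fits without a variance trend (0.0601) and under quantile normalization (0.0687) lost it as well. That scaling moved the median of all genes to -0.13 here and the share of higher calls from 53.9% to 42.1%. Pik3r1 fell by 0.46 (SE 0.16, adjusted p = 0.0408). That call did not survive leaving out any 1 of 7 libraries, all but synovial library 1 and control node library 3 (adjusted p of 0.0548 to 0.177). It was also lost with only the 2 groups compared in the fit (0.0785) and with weights per library (0.0856).

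The other genes of the pathway were taken as 8 lists with 65 genes, of which 57 passed the filter on low values. Between joint and arthritic node 14 of them were called higher and 9 lower, with a median of 0.20. Over all genes tested, 17.9% were called higher and 15.9% lower. Of 6 tested genes for other class I PI3K subunits and the adaptor Pik3ap1, 1 was higher and 1 lower. Pik3ca encodes p110 alpha, the widely expressed catalytic subunit, and rose from 582 ± 102 to 1337 ± 287 (SD, n = 3), by 1.19 ± 0.26 (adjusted p = 0.00369 by limma). The regulatory subunit gene Pik3r3 fell by 3.70 (SE 1.16), but by 1.95 without synovial library 3, where it had no read, and the call did not hold without arthritic node library 1 (adjusted p = 0.101) or 2 (0.0617). Pik3cg, the catalytic subunit used by G protein-coupled receptors, differed by -0.15 ± 0.25, and Pik3cb had at most 37.5 in any library and was not tested.

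Among 6 phosphoinositide phosphatases 1 was lower and none higher. Inpp4b fell from 5892 ± 259 to 4059 ± 674, by 0.55 (SE 0.12, adjusted p = 0.0043 by limma).

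Of 7 tested genes for kinases that activate Akt and Sgk and for mTORC2, 1 was higher and none lower. It was Mapkap1, an mTORC2 subunit gene, at 209 ± 30.1 in synovium, 123 ± 21.5 in arthritic nodes, with 251 ± 19.2 in control nodes. Its rise of 0.76 ± 0.27 (adjusted p = 0.0432 by limma) was lost in 12 of 22 alternatives, among them without synovial library 2 (0.12) or 3 (0.0911), arthritic node library 1 (0.102) or 2 (0.125), or control node library 2 (0.0574) or 3 (0.0532), and with only the 2 groups compared in the fit (0.0685, or 0.0946 with the mouse number as a block as well). Between arthritic and control nodes Mapkap1, singled out here after its values were seen, differed by -1.03 ± 0.27 (adjusted p = 0.19; DESeq2 adjusted p = 0.013). Between joint and arthritic node the differences of Pdpk1, the PDK1 gene (0.21 ± 0.19), Rictor (0.30 ± 0.17) and Mtor (-0.48 ± 0.28) did not pass. Against control nodes, Pdpk1 (0.55 ± 0.19, adjusted p = 0.0391 by limma) and Rictor (0.51 ± 0.17, adjusted p = 0.0337) were called higher in synovium. Mtor was not called there (-0.35 ± 0.28, adjusted p = 0.348). Alternatives were not run for these genes in that comparison.

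Of 5 protein brakes on Akt, 2 were higher and none lower. Both encode parts of protein phosphatase 2A. Its catalytic subunit gene Ppp2ca rose from 269 ± 37.3 to 698 ± 146, by 1.36 ± 0.25 (adjusted p = 0.00129 by limma). The scaffold gene Ppp2r1a rose by 0.51 ± 0.16 (adjusted p = 0.0247), but under quantile normalization its adjusted p was 0.234, and the call was lost without synovial library 1 (0.0711) or 3 (0.0934) or arthritic node library 1 (0.097) or 2 (0.0813). Of 8 genes of the mTORC1 branch, 1 was higher and 1 lower. Rheb, the GTPase that switches mTORC1 on, rose from 2229.7 ± 214 to 7912 ± 1880.0, by 1.80 ± 0.19 (adjusted p = 1.69e-05). Akt1s1, whose product PRAS40 inhibits mTORC1 until Akt acts on it, fell by 0.99 (SE 0.31, adjusted p = 0.0278), a call that did not hold with synovial library 1 left out (adjusted p = 0.103, when it fell by 0.68), nor without arthritic node library 1 (0.0527), 2 (0.0656) or 3 (0.0912).

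Substrates of Akt and Sgk split, with 3 of 10 higher and 2 lower. Ndrg1, whose protein is a standard readout of Sgk1 activity when phosphorylated, had 1706, 1309 and 2068 in synovium against 80.0, 179 and 207 in arthritic nodes, with 199, 95.7 and 163 in control nodes. All synovial libraries were far above the node libraries, and Ndrg1 rose by 3.53 ± 0.37 (adjusted p = 1.67e-05 by limma). Wnk1, a kinase of ion transport, rose by 1.90 ± 0.13 (adjusted p = 3.92e-07). Nedd4l, a ubiquitin ligase that Sgk1 holds back, fell by 1.99 (SE 0.55, adjusted p = 0.014), and its adjusted p was 0.0612 without synovial library 3. These are transcript levels and say nothing of phosphorylation.

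FoxO genes themselves did not pass: Foxo1 differed by 0.39 ± 0.20 (adjusted p = 0.155 by limma) and Foxo3 by 1.52 ± 1.16 (adjusted p = 0.344). Of 9 genes known as FoxO targets in T cells, 3 were higher and 3 lower. The cytokine receptor gene Il7r rose by 1.33 ± 0.21 and the cyclin gene Ccng2 by 1.14 ± 0.37. For Ccng2 the adjusted p was 0.0525 and 0.123 when synovial library 1 or 2 was left out, and 0.0614 and 0.112 when arthritic node library 2 or 3 was. Klf2 differed by -0.30 ± 0.29 (adjusted p = 0.463), and by -0.71 (adjusted p = 0.0232) without synovial library 3.

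Of 6 tested receptors and adaptors that recruit PI3K, 3 were higher and 1 lower. Icos, the costimulatory receptor that binds PI3K strongly, averaged 45557 ± 7525 in synovium, 10796 ± 1557 in arthritic nodes, with 5598 ± 1094 in control nodes (SD, n = 3). It rose by 2.07 ± 0.16 (adjusted p = 1.4e-06 by limma) between arthritic node and joint. Of the 57 genes, Icos alone was called between arthritic and control nodes by limma (0.95 ± 0.16, adjusted p = 0.0262). Leaving out synovial library 1 ended that call (adjusted p = 0.0503), as did leaving out arthritic node library 2 (0.178) or 3 (0.152), or control node library 1 (0.0865) or 2 (0.111), and fitting only the 2 groups compared (0.202). Irs2, an adaptor of the insulin and IL-4 receptors, had 391, 386 and 552 in synovium against 33.9, 0 and 27.1 in arthritic nodes and rose by 5.46 ± 1.12 (adjusted p = 0.00252), or by 3.81 without arthritic node library 2, where it had no read. Gab3, an adaptor of the Gab family, fell by 1.22 (SE 0.21, adjusted p = 0.000676). Against control nodes 16 of the 57 genes were higher and 11 lower in synovium, with a median of 0.15. Of all genes tested in that comparison, 21.6% were called higher and 18.5% lower.

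**Figure D4:**
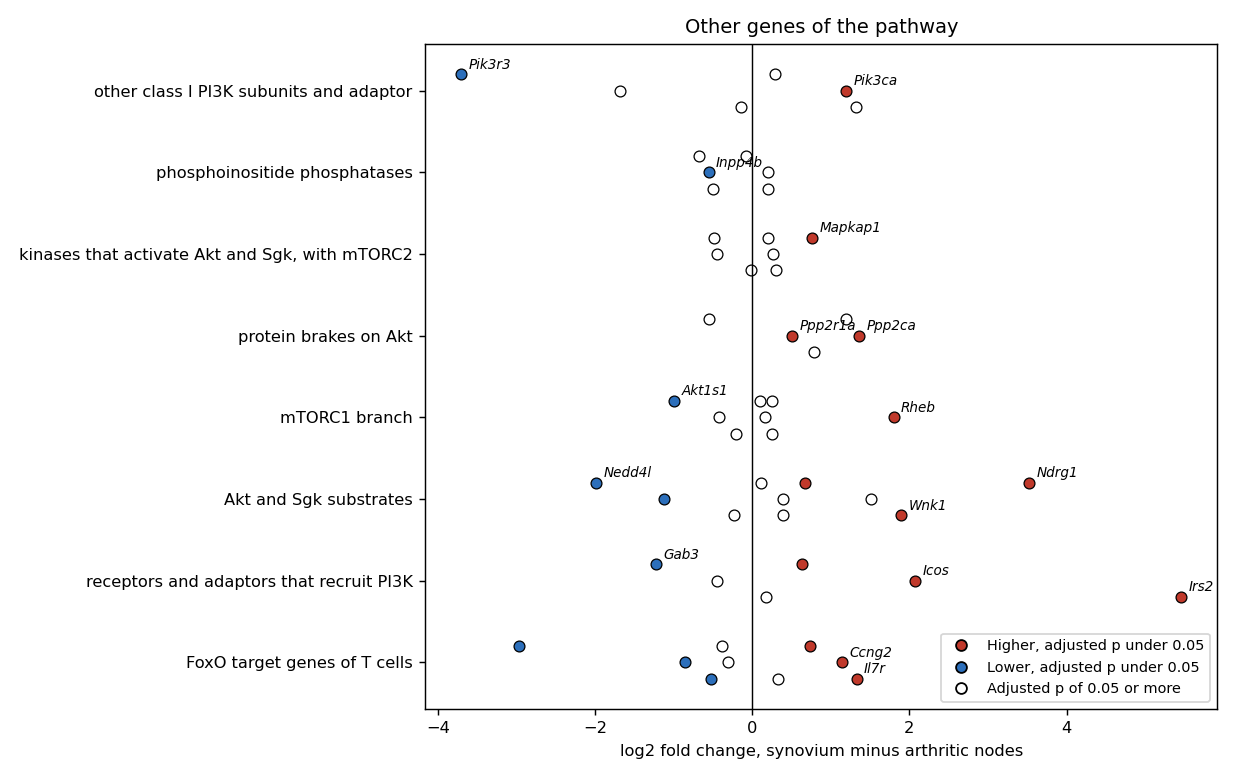
Log2 fold change between synovium and arthritic nodes (horizontal axis) of the 57 tested genes in the 8 pathway lists (rows), with 1 point per gene. Red points were called higher, blue points lower, and open points did not pass; the named genes run from Pik3r3 at -3.70 to Irs2 at 5.46, and 34 of the 57 points are open.

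Genes with the profile most like each member were sought among 8720 protein-coding genes with a mean of 50 or more, less those with Gm and Rik names. Likeness was Pearson's r of log2(normalized count + 1) over the 9 libraries, which fall into 3 groups. Sgk1 was closest to Neb (r = 0.99), Pglyrp1 (0.985) and Gpr55 (0.984), and Sgk3 to Ttc28 (0.992), Tmx2 (0.985) and Prmt3 (0.984). Pik3ip1 was closest to Ms4a6b (0.998) and the ribosomal protein gene Rplp0 (0.996). Phlpp1 followed Ppfia1 (0.996), Tgoln1 and Tor1aip2 (both 0.993), and Pik3cd followed Actn1 (0.993), Atf7ip and Arrb2 (both 0.992). Inpp5d was nearest to Il4ra (0.978), Akt2 to Sema4d (0.986), Akt1 to Itm2b (0.958) and Pik3r1 to Enox2 (0.955). Among the members, Pik3cd and Pik3ip1 were the closest pair (r = 0.987), while Sgk1 and Sgk3 stood at -0.889.

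Other measures moved with tissue as well. The summed value of 12 dissociation and stress genes, such as Fos, Dusp1 and Hspa1a, was 142444 to 166778 in synovium, 31088 to 45912 in arthritic nodes and 29006 to 35193 in control nodes. Of the 12, 10 were called higher and none lower between joint and arthritic node. Arthritic node library 2, the node library with the most Sgk1, had the highest of the node sums, 45912. Its sum was near the 43558 of library 1, which had the least Sgk1 of its group. Most of both sums came from Hspa8 alone, at 30130 in arthritic node library 2 and 27202 in library 1. The part of the dissociation and stress response in the Sgk1 rise was not tested.

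Of 6 dendritic cell markers, Zbtb46 and Xcr1 were called higher in synovium, where Itgax and Clec9a had no read, and the sum was 899 to 1078 there against 24.1 to 82.1 in arthritic and 38.1 to 62.1 in control nodes. The 6 fibroblast markers summed to 1724 in synovial library 3, to 34.1 and 70.5 in the other two, and to 0.87 to 156 in the node libraries. Without that library Sgk1 rose by 2.39, and the calls of Sgk1, Sgk3, Pik3ip1, Phlpp1 and Pik3cd were kept whichever single library was left out, while that of Inpp5d was not. Sums of 7 macrophage and monocyte markers were 13.5 to 117 in synovium (Adgre1, under its older name Emr1, at 0), 31.8 to 519.8 in arthritic and 73.1 to 367 in control nodes. Those of 4 B cell markers were 23.1 to 68.1, 273 to 391 and 15.5 to 127. The 4 neutrophil markers found reached at most 52.8 in any library and the 4 mast cell markers 59.3, and Mcpt4 and Cma1 had no read. The 4 endothelial markers summed to 1477 to 1741, 2311 to 2967 and 2806 to 3370.0, nearly all from Pecam1, with Kdr at 0. The 4 markers of CD8 T and NK cells summed to 113 to 234, 150.4 to 309 and 104 to 166, with Ncr1 at 0. The part of other cells in the members' differences was not tested.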

How the data were processed

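Per the submitters' processing notes, HISAT2, HTSeq and DESeq2 were used with the mm10 genome. The sources used here do not give versions, annotation or strand setting. The authors' deposited expression table holds a normalized signal per gene and library: 100% of nonzero values were whole multiples, within 0.01, of a step per library, which gave back the reads. The authors' deposited comparison holds mean signal, log2 fold changes with errors, a Wald score and p-values, per the file headers; its sign matched the means of the members.

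Limma 3.58.1 in R 4.3.3 (lmFit, eBayes with trend) was run on log2(value + 1) of the 11357 genes whose mean was at least 10, all 9 libraries in 1 fit, two-sided. All 9 members passed that filter. Alternatives changed the pseudocount (0.5 or 5), filter, variance model, scaling, libraries, threshold (2-fold), test (edgeR 4.0.16 and DESeq2 1.42.0 on recovered reads) and mouse number as a block. In arthritic mice that number pairs joint and node libraries by the titles; across genes, the residuals of the 3 pairs had correlations of 0.02, 0.05 and 0.09.

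The members and lists were chosen with earlier results of these data known. All members were named, with up to 3 called genes per list by size of change in the tissue comparison (with a mean of at least 50 in whichever group was higher), 10 genes named for their role, and the 3 genes most alike to a member, fewer being printed for some; results for a few genes are not reported here. Positions came from GENCODE vM21 (GRCm38). Protein sequences were not used here.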

Additional observations from a re-analysis of the deposited data

How the results depend on the processing

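Of 22 alternatives, the calls of Sgk1, Sgk3, Pik3ip1, Phlpp1 and Pik3cd in both comparisons of synovium kept their direction and side of the threshold in all 22. Over all members and comparisons, 557 values kept direction and side, 33 were no longer called, 2 became called and 2 changed sign. Without arthritic node library 1 the arthritic against control difference of Pik3cd was 0.023 (-0.15 to 0.023 over single libraries left out), and without control node library 2 that of Sgk3 was 0.089 (-0.37 to 0.089); neither was called in any alternative. Pik3cg between joint and arthritic node was 0.055 without synovial library 1 and 0.0088 without arthritic node library 2 (-0.41 to 0.055). With a 2-fold minimum, calls fell to 2146 genes and 14 pathway list genes between joint and arthritic node, to 2646 genes, 5 members and 16 list genes against control nodes, and to 0 list genes between nodes. Between arthritic and control nodes, 39 genes and 1 list gene were called; the numbers were 10 and 0 without a variance trend, 0 and 0 with only the groups compared, 186 and 2 by DESeq2 (and 1 member), and 0 list genes without the filter. The fits with the mouse number as a replicate block also held only the 2 groups compared. They called 0 genes and 0 list genes between nodes, as did such fits without the block, and 3776 genes and 6 members between joint and arthritic node, against 3759 and 6 without it. Between fits of 2 groups with and without the block, no member and no list gene named with its fold change crossed the threshold. Only joint and node libraries of arthritic mice share animals. Leaving out 1 library gave 3039 to 3895 genes, 5 to 6 members and 16 to 23 list genes between joint and arthritic node, 0 to 66, 0 to 0 and 0 to 2 between nodes, and 3823 to 4402, 6 to 8 and 24 to 29 between joint and control node. Of these, the lowest counts between nodes came without arthritic node library 2 (0 genes) or 3 (1 gene). Fewer samples or genes tested apart, the cause of these changes was not tested. Depth limits Sgk3 in synovium, with 10 to 46 reads a library.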
